A study of Mus musculus with 12 samples.

Results

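Conventional dendritic cells were followed through 10 genes in 12 bulk RNA-sequenced mouse tumors. The genes were picked by name from the 34678 gene symbols of the tables, and all 10 were found. Xcr1, Clec9a, Batf3 and Irf8 stand for type 1 cells (cDC1), Cd209a and Irf4 for type 2 cells (cDC2), Flt3 and Zbtb46 for conventional dendritic cells of both types (pan-cDC), and Ccr7 and Fscn1 for cells that have matured and migrate to lymph nodes.

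Conventional dendritic cells take up material from dying tumor cells and present it to T cells. The cDC1 type cross-presents tumor antigen to CD8 T cells and depends on the transcription factors BATF3 and IRF8, whereas the cDC2 type mainly primes CD4 T cells and depends largely on IRF4. Both arise under the cytokine FLT3L, and on maturation they turn on the chemokine receptor CCR7, which guides them to lymph nodes. In tumors they are far rarer than macrophages, and several of these genes are also used by other cells, such as IRF8 by macrophages and B cells, IRF4 by lymphocytes, plasma cells, macrophages and fat cells, and FSCN1 by carcinoma cells.

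The tumors grew from LLC1-shLkb1 cells, a Lewis lung carcinoma line that carries a short hairpin against Lkb1 (gene Stk11), placed under the skin of C57BL/6 mice 5 to 8 weeks old of either sex. Treatment began 7 days later in 4 arms, each sequenced as 3 tumors, and tumors were taken after 2 weeks. The vehicle arm received control IgG, the palbociclib arm a CDK4/6 inhibitor at 100 mg/kg by mouth on the first 3 days of each 7-day cycle, the anti-PD-1 arm 200 µg of antibody per mouse into the abdomen on 3 days of each cycle, and the combination arm both agents. All 12 tumors carry the hairpin, so that nothing here compares tumors with and without Lkb1, and Stk11 itself was listed at 7.90 to 11.5 FPKM. The question of the design was whether palbociclib, alone or with anti-PD-1, changed the immune content of these tumors. The unit throughout is FPKM, the fragments of a gene relative to its length and to all mapped fragments of the tumor, as the authors deposited it. Steps between low values put the depth at about 14800000 to 20200000 fragments per tumor. In bulk tissue, fewer cells of a type and less RNA per cell cannot be told apart.

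The tumors differed in what other tissue they held. The macrophage and monocyte genes summed to 331 to 1665 FPKM in vehicle tumors, 1104 to 1859 in palbociclib tumors, 386 to 1392 in anti-PD-1 tumors and 859 to 2053 in combination tumors. The T cell genes summed to 2.63 to 8.07, 9.85 to 18.9, 2.29 to 5.56 and 6.06 to 19.3 FPKM in the same order. Fat genes reached 336 FPKM in palbociclib replicate 1 and 808 in combination replicate 1, against at most 0.754 in any tumor without palbociclib, and the skin keratin Krt5 reached 101 FPKM in palbociclib replicate 2 and at most 0.228 elsewhere. Skeletal muscle genes summed to 147 FPKM in palbociclib replicate 3, 143 in combination replicate 2 and 51.1 in vehicle replicate 1, and to at most 9.73 in the others. Of genes that mark a lymph node, Ccl21a and Ccl19, both ligands of CCR7, were listed at 0 in all 12 tumors. The counting tool and annotation are not given, so a listed 0 may not mean absence. Madcam1 and Cr2 were above 0 in some tumors, at most 0.0947 and 0.0169 FPKM.

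The cDC1 surface genes were read close to the detection limit. Over all 12 tumors about 126 fragments came from Xcr1, the receptor for the chemokine XCL1, and about 67 from Clec9a, a receptor for actin exposed by dead cells. The factors that drive cDC1 cells act on stretches just before the start of genes. Such stretches are shown for Xcr1, for Clec9a and for Batf3, a factor that cDC1 cells require. Each holds the 250 bases before the RefSeq start on GRCm38.p6, 5′ to 3′ on the strand of the gene, with matches to any of 4 motifs in capitals. The windows are chr9:123862030-123862279 on the minus strand for Xcr1, chr6:129408612-129408861 on the plus strand for Clec9a and chr1:191098164-191098413 on the plus strand for Batf3. By GENCODE M21 Batf3 starts earlier, at 191097847, so its window lies inside that annotated gene.
Xcr1: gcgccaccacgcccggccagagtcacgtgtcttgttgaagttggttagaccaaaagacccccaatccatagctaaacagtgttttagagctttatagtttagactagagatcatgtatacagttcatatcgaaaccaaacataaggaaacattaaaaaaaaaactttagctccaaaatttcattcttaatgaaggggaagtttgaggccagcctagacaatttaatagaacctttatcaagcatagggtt
Clec9a: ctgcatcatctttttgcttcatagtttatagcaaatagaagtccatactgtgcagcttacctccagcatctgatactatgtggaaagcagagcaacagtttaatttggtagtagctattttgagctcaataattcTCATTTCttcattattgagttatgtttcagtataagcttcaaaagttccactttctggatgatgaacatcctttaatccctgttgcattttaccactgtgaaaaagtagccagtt
Batf3: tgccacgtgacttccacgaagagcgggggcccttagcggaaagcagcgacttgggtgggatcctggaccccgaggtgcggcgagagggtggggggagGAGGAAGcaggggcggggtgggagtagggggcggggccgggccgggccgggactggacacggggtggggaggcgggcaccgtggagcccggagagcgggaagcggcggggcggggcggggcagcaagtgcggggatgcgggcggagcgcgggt

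Searched on both strands were the AP-1 site TGANTCA, to which BATF3 and its partners bind, and the interferon response element GAAANNGAA. The others were the PU.1 core GAGGAAG and GAAATGA, a part of the composite element at which BATF and IRF factors meet. This composite part lacks a full AP-1 site. Clec9a held 1 composite part without an AP-1 site (TCATTTC on this strand, bases -115 to -109 from the RefSeq start). Batf3 held 1 PU.1 core (bases -153 to -147), and Xcr1 held none of the 4. Among 32851 promoter windows of this length 6.75% held the AP-1 site, 7.13% the interferon element, 4.64% the composite part and 10.6% the PU.1 core. Of the 9 genes with a window, Zbtb46 was the other one with a match, an AP-1 site overlapping the composite part. The windows of Irf8, Flt3, Cd209a, Irf4 and Fscn1 held none. The Zbtb46 window, chr2:181424389-181424638 on the minus strand, lies inside the gene by GENCODE M21 (chr2:181387762-181459426). Whether it acts as a promoter was not tested.

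Levels differed widely among the 10 genes. Averaged over the 12 tumors, Fscn1, an actin-bundling protein, stood at 60.7 FPKM (SD 9.07), Irf8 at 3.69 (SD 1.63), Ccr7 at 1.57 (SD 0.863) and Zbtb46 at 0.910 (SD 0.202). Batf3 followed at 0.437, Cd209a at 0.434, Irf4 at 0.344, Flt3 at 0.231, Xcr1 at 0.145 and Clec9a at 0.0856 FPKM. Fscn1 exceeded Irf8 and Irf8 exceeded Ccr7 in 12 of 12 tumors, whereas Batf3 exceeded Cd209a in 7, Cd209a exceeded Irf4 in 7, Irf4 exceeded Flt3 in 6 and Xcr1 exceeded Clec9a in 5, so these neighbours did not differ beyond their spread. Within each tumor Fscn1 was 3.82 to 17.4 times the sum of the other 9 genes.

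**Figure D1:**
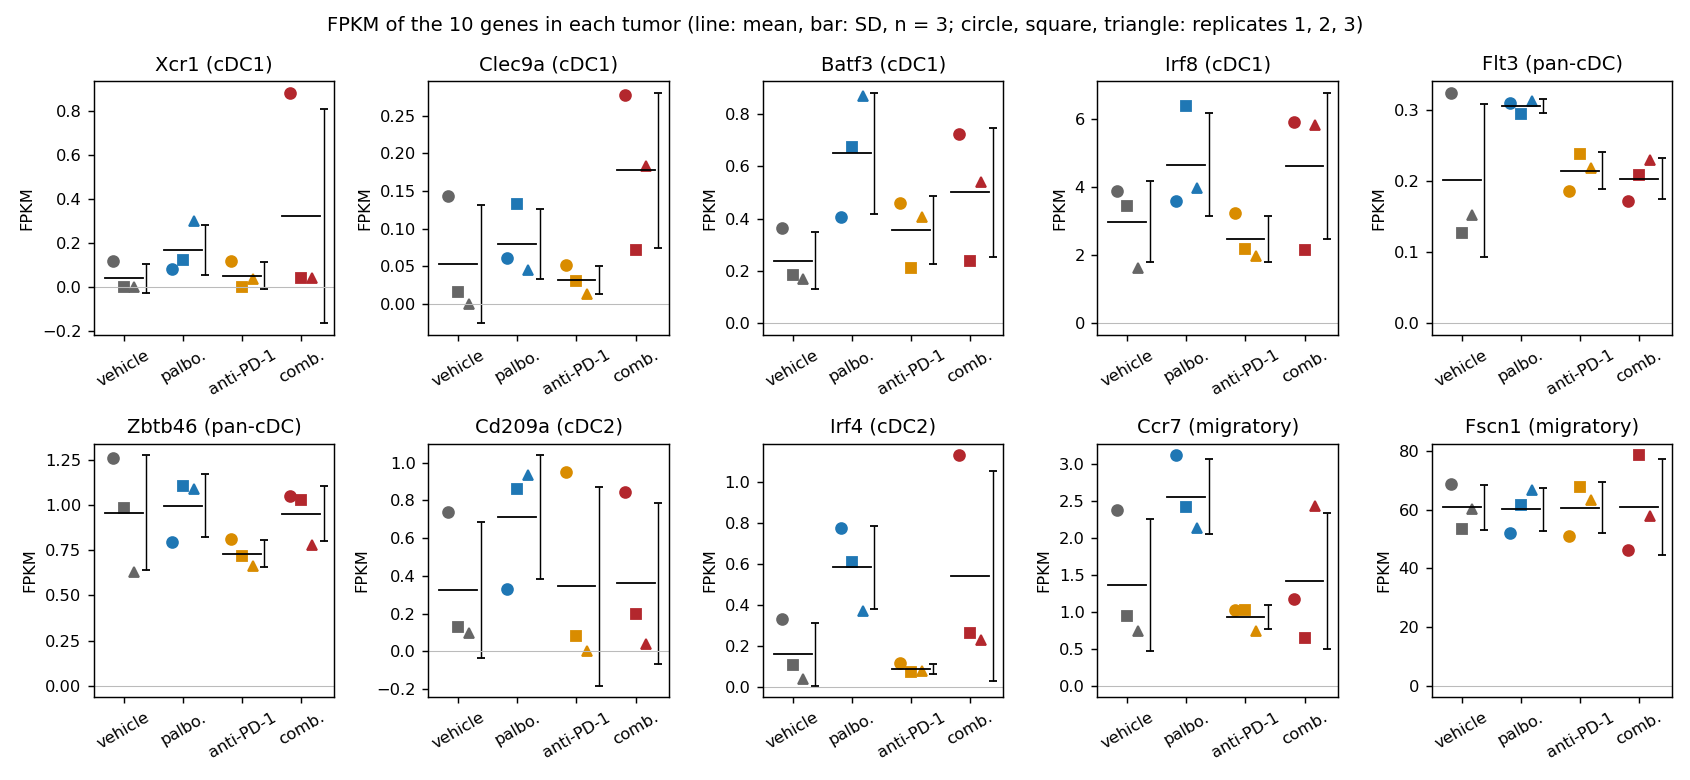
FPKM of each of the 10 genes (vertical axes, one scale per gene) in the 12 tumors by arm, with circle, square and triangle for replicates 1, 2 and 3, the mean as a line and the SD as a bar (n = 3). Irf4 is above every vehicle tumor in all 3 palbociclib tumors, Fscn1 lies between 46.4 and 78.6 FPKM in every arm, and the mean of Xcr1 in the combination arm is carried by 1 tumor at 0.883 FPKM.

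Differences were tested with limma on log2(FPKM + 0.1) over the 15350 genes with a mean of at least 0.1 FPKM, and a gene was called at an adjusted p under 0.05 (Benjamini-Hochberg over all genes tested). On this scale a fold change understates the change of a low gene. Of the 10 genes 9 entered, Xcr1 among them only through combination replicate 1 (mean 0.0775 FPKM over the other 11 tumors), and Clec9a, which fell under the filter, was compared by an exact permutation test. The palbociclib effect is the mean of 2 differences, palbociclib minus vehicle and combination minus anti-PD-1, and so draws on 6 treated and 6 untreated tumors. None of the 9 genes was called in any of the 7 comparisons. Over all genes 0.143% were called for palbociclib against vehicle, 0.013% for the combination against vehicle, 0.00651% for the combination against anti-PD-1, 0.00651% for the combination against palbociclib and 0.313% for the palbociclib effect. For anti-PD-1 against vehicle and for the interaction (whether palbociclib acted differently with anti-PD-1) 0% of genes were called by limma, with 1289 and 879 genes at an unadjusted p under 0.05. The comparisons of palbociclib and of the combination with vehicle share the 3 vehicle tumors.

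In the palbociclib effect 8 of the 9 genes had a value above 0, against 59.8% of all genes, and their median was 0.72 on the log2 scale against 0.06 for all genes. Leaving out Xcr1, which the filter admitted through a tumor where it is high, 7 of 8 were above 0 with a median of 0.71. These counts describe the genes that passed the filter and not all members. At an unadjusted p under 0.05 stood Irf4, Batf3 and Irf8, 3 of 9 against 20.5% of all genes. With Ptprc, the pan-leukocyte gene, as a covariate 9 of 9 were above 0, with a median of 0.33 against 0.05 for all genes. In that fit 1 of 9 stood at an unadjusted p under 0.05, against 10.7% of all genes. All 3 palbociclib tumors lay above all 3 vehicle tumors for Batf3 and Irf4, 2 of 9 genes against 12.9% of all genes. All 3 combination tumors lay above all 3 anti-PD-1 tumors for Irf4, 1 of 9 against 11.4% of all genes, and also for Clec9a outside the 9.

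**Figure D2:**
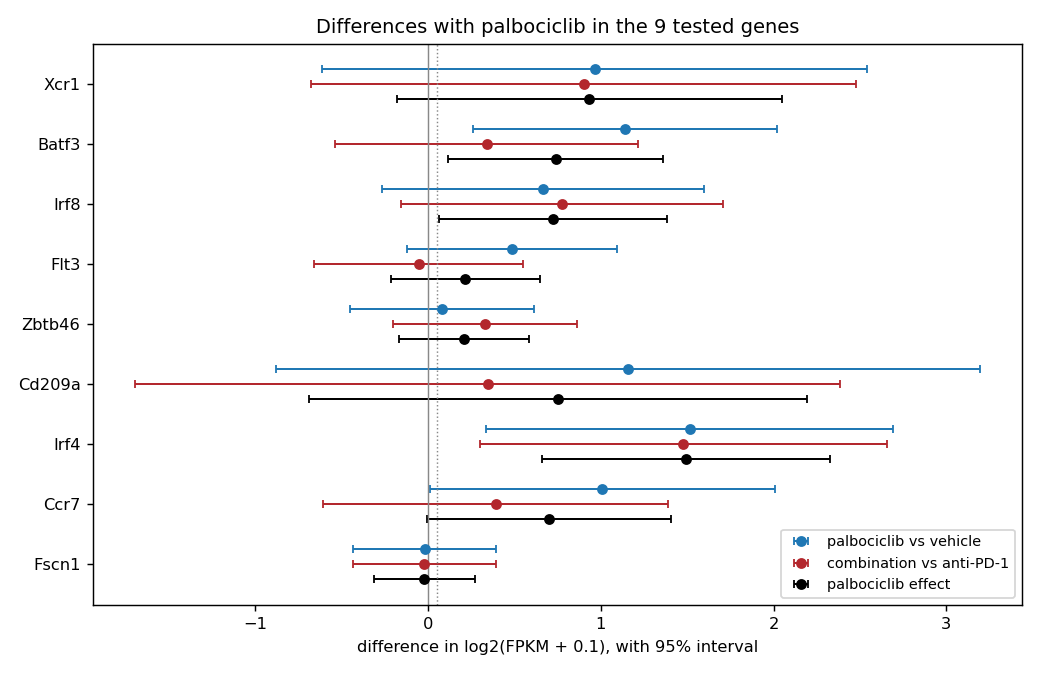
Difference in log2(FPKM + 0.1) (horizontal axis) with its 95% interval from limma for the 9 tested genes, for palbociclib against vehicle in blue, combination against anti-PD-1 in red and the palbociclib effect in black. The dotted line marks the median palbociclib effect of all genes (0.06), and Irf4 has the largest palbociclib effect (1.50), with an interval from 0.66 to 2.33.

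Among the cDC1 genes, Xcr1 was listed at 0.116, 0 and 0 FPKM in vehicle tumors, 0.083, 0.121 and 0.298 with palbociclib, 0.117, 0 and 0.036 with anti-PD-1 and 0.883, 0.039 and 0.042 with the combination, in replicate order. Only combination replicate 1 stood clear of the rest, with 50.9% of the summed Xcr1 FPKM, and the arms overlapped. This is also the tumor highest in fat genes (808 FPKM). Across the 12 tumors Xcr1 correlated with the mean of the fat genes at r = 0.77, and the part of fat in its values was not tested. The palbociclib effect was 0.93 (SE 0.51, 95% interval -0.18 to 2.05, limma adjusted p = 0.317), with 4 of 6 treated tumors above the mean of their untreated arm (here and for the other genes, the mean of log2 values). Without combination replicate 1 it was 0.47 (limma adjusted p from 0.208 to 0.504 when each tumor was left out in turn). In fragments the arms held 8 (vehicle), 36 (palbociclib), 13 (anti-PD-1) and 69 (combination), with exact 95% Poisson intervals of 3.45 to 15.8, 25.2 to 49.8, 6.92 to 22.2 and 53.7 to 87.3. These intervals cover counting error only and leave out the spread between tumors. A count of 0, as in 3 tumors, allows up to 3 fragments, which is as many as combination replicates 2 and 3 held.

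Clec9a was listed at 0.144, 0.016 and 0 FPKM in vehicle tumors, 0.061, 0.133 and 0.045 with palbociclib, 0.052, 0.030 and 0.013 with anti-PD-1 and 0.278, 0.072 and 0.183 with the combination. The combination tumors all lay above the anti-PD-1 tumors, whereas vehicle replicate 1 was higher than every palbociclib tumor. The palbociclib effect was 0.66 (two-sided exact permutation test over 400 relabelings, p = 0.06), with 6 of 6 treated tumors above the mean of their untreated arm on the log2 scale and 5 of 6 in FPKM. It was 0.86 (exact permutation p = 0.005) without vehicle replicate 1, 0.82 (exact permutation p = 0.045) without combination replicate 2 and 1.68 (exact permutation p = 0.045) with a pseudocount of 0.01. Over all fits that left out 1 tumor it ranged from 0.53 to 0.86 (exact permutation p from 0.005 to 0.13), and over the other alternatives from 0.11 to 1.68 (exact permutation p from 0.045 to 0.23). Fits that left out tumors had fewer relabelings, and 0.005 was the smallest p possible with 1 tumor left out. With 1 tumor left in each treated arm p could not fall under 0.05. Clec9a shares exon bases with Clec1b on the same strand, so that some of its 67 fragments may belong to either gene.

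**Figure D3:**
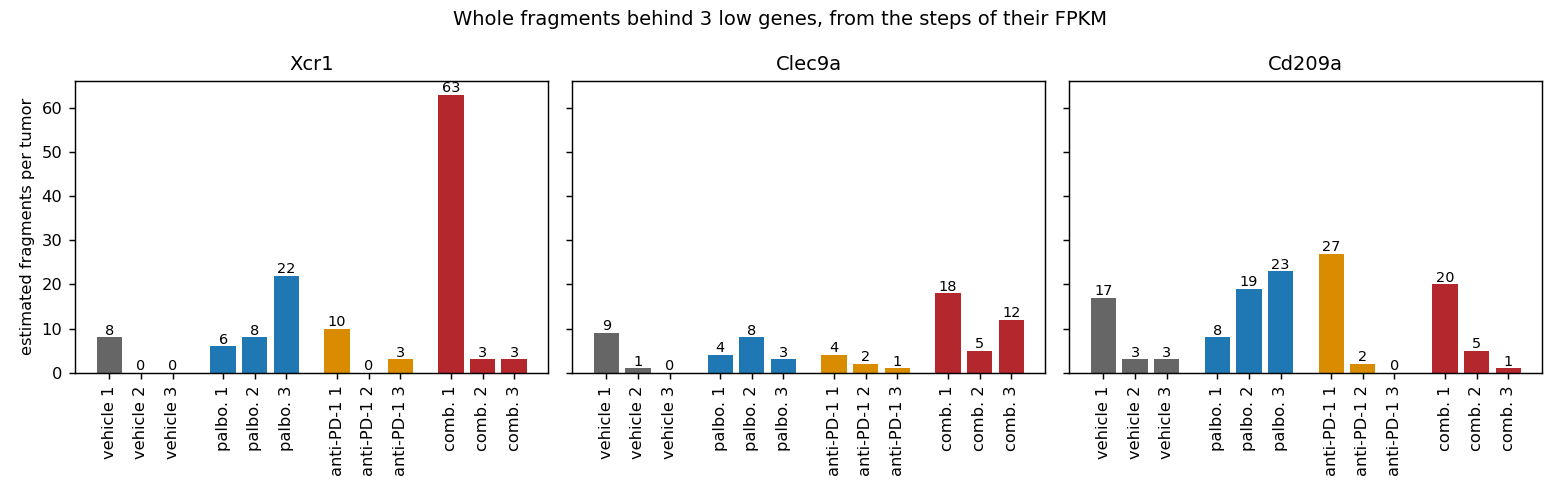
Estimated fragments per tumor (vertical axis, from 0) of Xcr1, Clec9a and Cd209a, with one bar per tumor coloured by arm and its number above. Combination replicate 1 holds 63 of the 126 Xcr1 fragments, and 2 vehicle tumors and 1 anti-PD-1 tumor hold none.

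Batf3 was listed at 0.364, 0.183 and 0.170 FPKM in vehicle tumors, 0.406, 0.674 and 0.870 with palbociclib, 0.458, 0.211 and 0.406 with anti-PD-1 and 0.723, 0.237 and 0.541 with the combination. Palbociclib and vehicle tumors did not overlap, but combination and anti-PD-1 tumors did. Its palbociclib effect was 0.74 (SE 0.28, 95% interval 0.12 to 1.36, limma adjusted p = 0.184), with 5 of 6 treated tumors above the mean of their untreated arm. Palbociclib against vehicle gave 1.14 (SE 0.40, limma adjusted p = 0.298) and combination against anti-PD-1 0.34 (SE 0.40, limma adjusted p = 0.740). The interaction was -0.80 (SE 0.56, limma adjusted p = 0.921), so the smaller difference under anti-PD-1 was within the spread. About 278 fragments came from Batf3 by its steps and 138 by its annotated length, so its number of fragments is uncertain. If the length behind its FPKM was shorter than the annotated one, its FPKM and its place above Cd209a, Irf4 and Flt3 are too high, whereas differences between tumors do not depend on that length. Activated T cells also use Batf3, the T cell genes summed to 6.06 to 19.3 FPKM in treated and 2.29 to 8.07 in untreated tumors, and their part in the Batf3 values was not tested.

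Irf8, the second factor that cDC1 cells require, was the highest of the cDC1 genes, at 3.89, 3.44 and 1.63 FPKM in vehicle tumors, 3.59, 6.40 and 3.99 with palbociclib, 3.25, 2.18 and 1.98 with anti-PD-1 and 5.91, 2.14 and 5.83 with the combination. Both comparisons overlapped, through palbociclib replicate 1 and combination replicate 2. For Irf8 the palbociclib effect was 0.72 (SE 0.30, 95% interval 0.06 to 1.38, limma adjusted p = 0.212), with 5 of 6 treated tumors above the mean of their untreated arm. Across the 12 tumors Irf8 correlated with the mean of the macrophage genes at r = 0.90. The other members did so at r from 0.46 (Flt3) to 0.81 (Batf3), except Fscn1 at -0.33. The Irf8 level was lowest in vehicle replicate 3, where the macrophage genes summed to 331 FPKM, the least of any tumor. The 7 plasmacytoid dendritic cell genes, whose cells also use Irf8, summed to 258 to 363.9 FPKM in the untreated tumors and 390 to 618 in the treated ones. Nearly all of this was Bst2, which interferon induces in many cell types (palbociclib effect 0.49, SE 0.11, limma adjusted p = 0.0807), while the more selective Siglech and Ccr9 were at most 0.133 and 0.0750 FPKM. The part of macrophage and plasmacytoid cell content in the Irf8 values was not tested.

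The pan-cDC genes had small palbociclib effects. Flt3, the receptor for FLT3L, was listed at 0.324, 0.126 and 0.152 FPKM in vehicle tumors, 0.310, 0.294 and 0.313 with palbociclib, 0.186, 0.238 and 0.219 with anti-PD-1 and 0.172, 0.208 and 0.230 with the combination. The 3 palbociclib tumors lay close together, but vehicle replicate 1 was higher than all of them. Its palbociclib effect was 0.22 (SE 0.20, 95% interval -0.21 to 0.65, limma adjusted p = 0.542). For Flt3 palbociclib against vehicle gave 0.49 (SE 0.28) and combination against anti-PD-1 -0.05 (SE 0.28). The interaction was -0.54 (SE 0.39, limma adjusted p = 0.924). Zbtb46, a transcription factor that sets conventional dendritic cells apart from other myeloid cells and is also present in endothelium, ranged from 0.631 to 1.26 FPKM in vehicle tumors, 0.795 to 1.11 with palbociclib, 0.665 to 0.811 with anti-PD-1 and 0.778 to 1.05 with the combination. Its palbociclib effect was 0.21 (SE 0.17, 95% interval -0.17 to 0.58, limma adjusted p = 0.505), with 0.09 (without vehicle replicate 3) to 0.31 (without vehicle replicate 1) when single tumors were left out, against 0.13 (without vehicle replicate 2) to 0.36 (without vehicle replicate 1) for Flt3. Endothelial genes summed to 9.52 to 12.6 FPKM in the 6 treated tumors and 12.3 to 27.2 in the 6 others.

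Of the cDC2 genes, Irf4 had the largest palbociclib effect of the 9. It was listed at 0.332, 0.107 and 0.041 FPKM in vehicle tumors, 0.774, 0.609 and 0.373 with palbociclib, 0.118, 0.076 and 0.078 with anti-PD-1 and 1.13, 0.264 and 0.229 with the combination. Each palbociclib tumor lay above each vehicle tumor and each combination tumor above each anti-PD-1 tumor, so that 6 of 6 treated tumors stood above the mean of their untreated arm. The palbociclib effect was 1.50 (SE 0.38, 95% interval 0.66 to 2.33, limma adjusted p = 0.0911). Without vehicle replicate 1, the highest untreated tumor, it was 1.72 (limma adjusted p = 0.0368), the only single tumor whose removal brought Irf4 past the threshold. The difference was about the same without anti-PD-1 (1.51, SE 0.54) and with it (1.48, SE 0.54), and the interaction was -0.04 (SE 0.76, limma adjusted p = 0.999).

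Irf4 was highest in the 2 tumors with the most fat RNA. Its correlation with the mean of the fat genes over the 12 tumors was r = 0.89, the highest of any member. Combination replicate 1 with 1.13 FPKM of Irf4 held 102 FPKM of Adipoq, the fat cell hormone adiponectin, and palbociclib replicate 1 with 0.774 held 34.6, while no other tumor passed 2.34. All 5 of the 5 fat genes had a palbociclib effect above 0, against 59.8% of all genes, and none was called, against 0.313%. Plasma cell genes, whose cells also use Irf4, summed to 0.160 to 0.575 FPKM in untreated and 0.413 to 1.19 in treated tumors. Of the T cell genes 8 of 8 had a palbociclib effect above 0 and none was called, against the same shares of all genes. Without replicates 1 and 2 of the palbociclib and combination arms, 4 of the tumors high in skin, fat or muscle genes, the Irf4 effect was 0.91 (limma adjusted p = 0.530), with 1 tumor left in each treated arm and its spread taken from the others. Of the tumors kept there, palbociclib replicate 3 held 28.3 FPKM of fat genes and 147 of muscle genes. Without only the 2 tumors highest in fat genes, an alternative chosen after seeing the data, it was 1.09 (limma adjusted p = 0.203). With Ptprc, the pan-leukocyte gene, as a covariate it was 1.21 (limma adjusted p = 0.403). The part of fat, plasma cells and T cells in the Irf4 values was not tested.

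**Figure D4:**
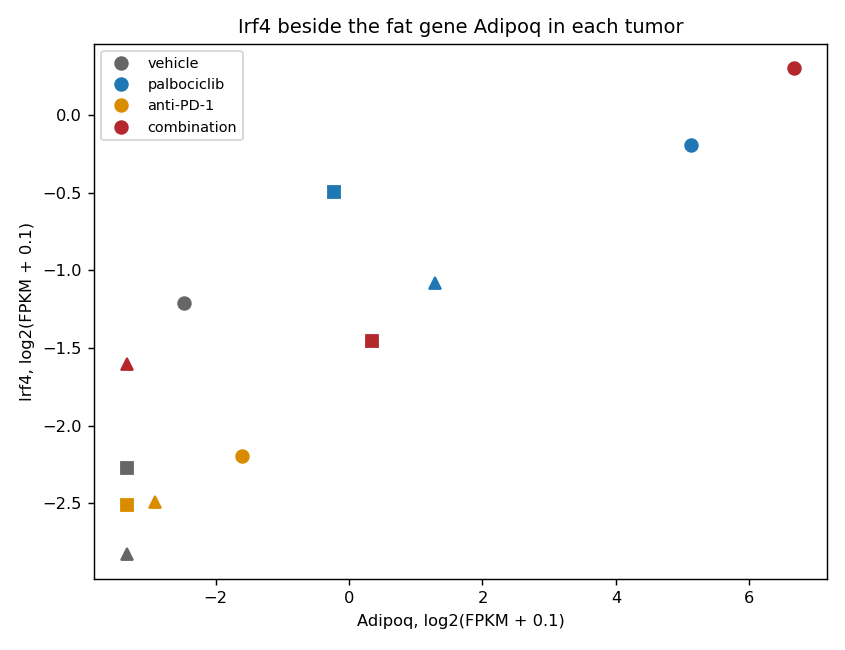
Irf4 (vertical axis) against Adipoq (horizontal axis), both as log2(FPKM + 0.1), with one point per tumor, colour for the arm and circle, square and triangle for replicates 1, 2 and 3. The 2 tumors highest in Adipoq, at 102 and 34.6 FPKM, are also the 2 highest in Irf4, and combination replicate 3, with Adipoq listed at 0, holds 0.229 FPKM of Irf4.

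Cd209a, a lectin of cDC2 and monocyte-derived cells, was listed at 0.740, 0.131 and 0.0997 FPKM in vehicle tumors, 0.332, 0.861 and 0.935 with palbociclib, 0.951, 0.0826 and 0 with anti-PD-1 and 0.841, 0.196 and 0.0416 with the combination. The highest tumor of the series was an anti-PD-1 tumor and every arm overlapped every other. For Cd209a the palbociclib effect was 0.75 (SE 0.65, 95% interval -0.69 to 2.19, limma adjusted p = 0.531), the widest interval of the 9 genes, and the value rested on about 128 fragments. It ranged from 0.39 (without combination replicate 1) to 1.25 (without anti-PD-1 replicate 1) when single tumors were left out.

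Of the migratory genes, Ccr7 was listed at 2.38, 0.951 and 0.748 FPKM in vehicle tumors, 3.12, 2.41 and 2.14 with palbociclib, 1.03, 1.02 and 0.737 with anti-PD-1 and 1.17, 0.648 and 2.43 with the combination. All 3 palbociclib tumors were above 2 FPKM and were overlapped among vehicle tumors by replicate 1 and among combination tumors by replicate 3, while combination tumors spread from the lowest Ccr7 value of the series to the second highest. For Ccr7 the palbociclib effect was 0.70 (SE 0.32, 95% interval -0.0034 to 1.41, limma adjusted p = 0.245), with 1.01 (SE 0.45) without anti-PD-1 and 0.39 (SE 0.45) with it, and the interaction was -0.62 (SE 0.64, limma adjusted p = 0.942). Ccr7 also marks naive and central memory T cells, and their part was not tested.

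Fscn1 was listed at 68.7, 53.5 and 60.4 FPKM in vehicle tumors, 52.0, 61.7 and 66.6 with palbociclib, 51.2, 67.9 and 63.2 with anti-PD-1 and 46.4, 78.6 and 57.8 with the combination. The arms overlapped fully, with means of 60.9, 60.1, 60.7 and 60.9 FPKM. The palbociclib effect was -0.02 (SE 0.13, 95% interval -0.31 to 0.27, limma adjusted p = 0.950), and its sign turned under 7 alternatives. Across the 12 tumors Fscn1 correlated with the other 9 genes at r between -0.43 (Irf8) and 0.38 (Flt3).

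The balance of cDC1 against the other genes was read as a difference of means of log2(FPKM + 0.1) within each tumor, as a description. The mean of the 4 cDC1 genes was -1.46 ± 0.56 in vehicle tumors, -0.69 ± 0.31 in palbociclib tumors, -1.39 ± 0.35 in anti-PD-1 tumors and -0.64 ± 0.83 in combination tumors (SD, n = 3). The mean of the 2 cDC2 genes was -1.83 ± 0.97, -0.50 ± 0.21, -2.15 ± 0.97 and -1.24 ± 1.20 in the same order. Both means were higher in the treated arms, by 0.77 for cDC1 and 1.12 for cDC2, with SDs within arms of 0.56 and 0.92. Of the 2 cDC2 genes Irf4 had an effect of 1.50 and Cd209a of 0.75. Irf4 is also used by other cells, whose part in this mean was not tested.

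The cDC1 mean minus the cDC2 mean was 0.37 ± 0.42 in vehicle tumors, -0.19 ± 0.16 in palbociclib tumors, 0.76 ± 0.68 in anti-PD-1 tumors and 0.60 ± 0.81 in combination tumors (SD, n = 3). It was below 0 in all 3 palbociclib tumors and in vehicle replicate 1 and above 0 in the other 8. The palbociclib effect on this balance was -0.36, with an SD within arms of 0.57. Here and below that SD is the spread of single tumors and not the error of the averaged effect, which was not computed. It ranged from -0.59 (without combination replicate 3) to -0.19 (without anti-PD-1 replicate 3) when single tumors were left out, and was -0.04 with a pseudocount of 1. Against Ccr7 the effect on the cDC1 mean was 0.06, with an SD within arms of 0.60. Against the mean of Ccr7 and Fscn1 it was 0.42, with an SD within arms of 0.55, and it ranged from 0.16 (without combination replicate 1) to 0.57 (without combination replicate 2) when single tumors were left out.

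**Figure D5:**
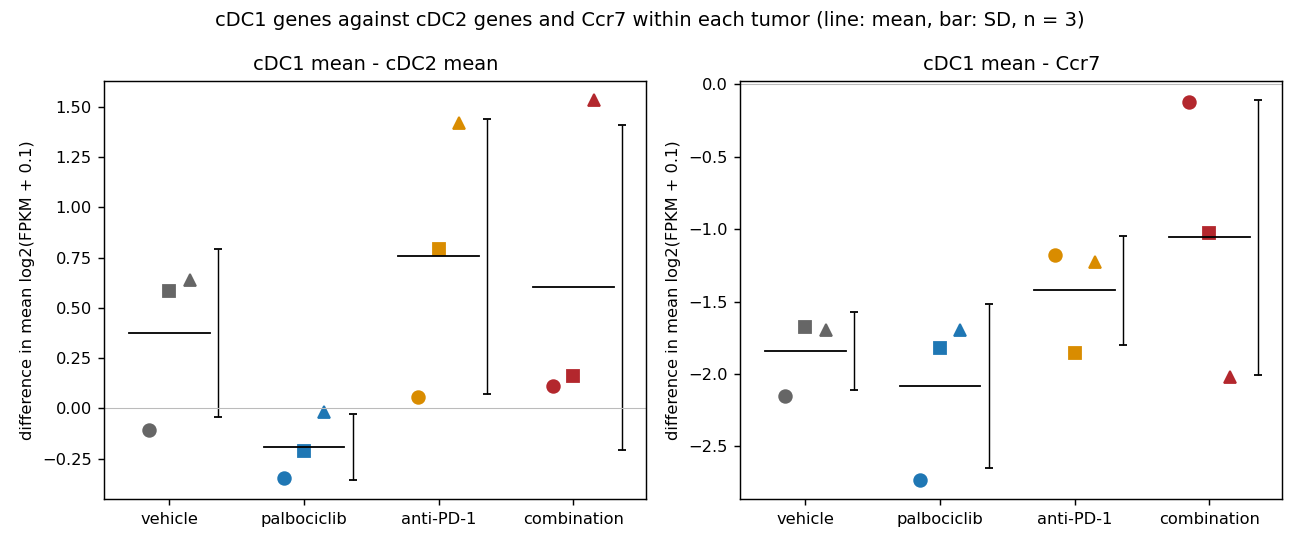
Mean log2(FPKM + 0.1) of the 4 cDC1 genes minus that of the 2 cDC2 genes (left) and minus Ccr7 (right), with one point per tumor by arm, circle, square and triangle for replicates 1, 2 and 3, the mean as a line and the SD as a bar (n = 3). On the left the 3 palbociclib tumors lie between -0.34 and -0.02, and the combination tumors spread from 0.11 to 1.53.

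In 3 of the 4 arms most members were high in the same tumor. Vehicle replicate 1 was the highest vehicle tumor for 10 of 10 members and for 42.5% of all tested genes. Anti-PD-1 replicate 1 was the highest of its arm for 8 of 10 members (not Flt3 and Fscn1) and for 44.0% of tested genes. Combination replicate 1 was the highest of its arm for 7 of 10 members (not Flt3, Ccr7 and Fscn1) and for 33.4% of tested genes. In the palbociclib arm the highest tumor was replicate 1 for 2 members, replicate 2 for 3 and replicate 3 for 5, with 32.9% to 33.6% of tested genes each. The macrophage genes summed to 1665 FPKM in vehicle replicate 1 against 812 and 331 in the other two, and to 1392 in anti-PD-1 replicate 1 against 386 and 394. In the combination arm they summed to 2047 and 2053 in replicates 1 and 3 and to 859 in replicate 2. Neutrophil genes ran the other way in the untreated arms, at 29.2, 57.0 and 504 FPKM in vehicle tumors and 43.2, 254 and 225 with anti-PD-1. The part of macrophage and neutrophil content in the members' values was not tested.

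Lists of further genes of these cells were read in the same fit. In that fit 59.8% of all genes had a palbociclib effect above 0, 20.5% stood at an unadjusted p under 0.05 and 0.313% were called. Of 14 other cDC1 genes 11 were tested. Of these 9 had a palbociclib effect above 0, 6 stood at an unadjusted p under 0.05 and 1 was called. This was Tlr3, a sensor of double-stranded RNA, at 2.14, 1.71 and 1.90 FPKM in vehicle tumors, 4.01, 3.57 and 4.36 with palbociclib, 2.96, 1.96 and 2.48 with anti-PD-1 and 3.18, 2.89 and 3.23 with the combination. Palbociclib and vehicle tumors did not overlap, and one anti-PD-1 tumor reached the combination tumors, with an effect of 0.68 (SE 0.11, limma adjusted p = 0.0399). The effect stayed between 0.60 and 0.74 when single tumors were left out, but the call was lost in 9 of those 12 fits (limma adjusted p from 0.0208 to 0.144), all except the fits without vehicle replicate 1, anti-PD-1 replicate 1 or combination replicate 2. With Ptprc as a covariate it was 0.62 (limma adjusted p = 0.235). Tlr3 is also used by macrophages, fibroblasts and epithelial cells. The median effect of the 11 was 0.25 on the log2 scale.

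Of 14 other cDC2 genes 10 were tested and 0 called by limma, against 0.313% of all genes. At an unadjusted p under 0.05 stood 8 and above 0 stood 7, against 20.5% and 59.8% of all genes. The 10 had a median effect of 1.09. The 3 with the smallest p were Clec12a, an inhibitory lectin of myeloid cells (2.15, SE 0.54, limma adjusted p = 0.0885), Esam, an adhesion molecule of cDC2 cells and endothelium (-0.68, SE 0.18, limma adjusted p = 0.0983), and Cd2, an adhesion molecule of lymphocytes and some cDC2 cells (1.29, SE 0.36, limma adjusted p = 0.110). Of 19 other genes of mature or migratory cells 17 were tested and 0 called by limma. At an unadjusted p under 0.05 stood 8 and above 0 stood 15, against the same shares of all genes. The 17 had a median effect of 0.41. Their smallest p belonged to Cd83 (1.78, SE 0.46, limma adjusted p = 0.0953), Cd86, the costimulatory ligand of CD28 (1.43, SE 0.38, limma adjusted p = 0.0999) and Cd40 (1.01, SE 0.29, limma adjusted p = 0.119). For comparison the median was 1.17 over 12 macrophage and monocyte genes and 1.48 over 8 T cell genes, of which 0 were called by limma, with 9 and 8 at an unadjusted p under 0.05.

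Of 9 ligands and growth factors that act on these cells 6 were tested. All 6 had an effect above 0 against 59.8% of all genes, and 0 were called by limma against 0.313%. At an unadjusted p under 0.05 stood 2 of the 6, against 20.5% of all genes. Xcl1, the ligand of XCR1 made by T and NK cells, was listed at 1.60, 0.620 and 0 FPKM in vehicle tumors, 0.707, 4.50 and 3.00 with palbociclib, 0.400, 0.117 and 0 with anti-PD-1 and 1.55, 0.780 and 1.77 with the combination. Combination tumors all lay above anti-PD-1 tumors, and palbociclib replicate 1 lay under vehicle replicate 1, with an effect of 2.42 (SE 0.70, limma adjusted p = 0.115). Flt3l, the growth factor of all conventional dendritic cells, averaged 3.43 ± 0.69 FPKM in vehicle tumors, 5.55 ± 0.26 in palbociclib tumors, 4.32 ± 1.23 in anti-PD-1 tumors and 4.65 ± 0.67 in combination tumors (SD, n = 3), an effect of 0.41 (SE 0.14, limma adjusted p = 0.153). Csf2, which supports dendritic cell growth, gave 0.24 (SE 0.51), Kitl, the stem cell factor, 0.23 (SE 0.11), Il15, a lymphocyte cytokine, 0.19 (SE 0.13) and Tgfb1 0.08 (SE 0.13), with limma adjusted p from 0.258 to 0.812. Ccl20, Ccl19 and Ccl21a were not tested.

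Genes most like the cDC1 surface genes over the 12 tumors were found by Pearson's r with the mean of standardized Xcr1 and Clec9a. Among them were Marco, a scavenger receptor of macrophages (r = 0.94), Cd226, an activating receptor of T and NK cells (r = 0.93), Jazf1 (r = 0.93) and Creg1 (r = 0.93). Spearman's rho was 0.86 to 0.87 for these 4, and r was 0.86 to 0.93 without combination replicate 1. For Ccr7 they were Trim14 (r = 0.90), Ccl17, a chemokine of mature dendritic cells (r = 0.86), Arrdc4 (r = 0.86), Cish, an inhibitor of cytokine signaling (r = 0.86), and AC133103.7 (r = 0.86), with rho of 0.76 to 0.89. These are among the highest of 15350 genes over 12 tumors that share arms and tissue content, and they describe likeness in these tumors only.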

How the data were processed

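Bulk RNA from 12 subcutaneous tumors, 3 per arm by the labels, was examined, and the tumors of an arm were treated as separate mice, which the labels do not state outright, so p-values measure the spread between these samples only. The authors deposited 1 table of FPKM per tumor with 34745 entries, and the submitters' processing notes name HISAT2 and GRCm38 (mm10); the version, the counting tool and the annotation are not given in the sources used here. For 67 repeated symbols the entry with the highest mean was kept, leaving 34678. Positions and lengths come from GENCODE M21, which lists 94.4% of the symbols, and promoter windows from RefSeq (GRCm38.p6), without the bases after the start.

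Fragment numbers were recovered from the steps of low FPKM values, each step being 1 fragment, for 7 of the 10 genes (every value within 0.05 of a whole number) and estimated from length and depth for the others. Depth is 14800000 to 20200000 fragments per tumor, median 16200000, so genes under 0.1 FPKM rest on few fragments.

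FPKM are not counts, so limma 3.58.1 in R 4.3.3 (eBayes with a trend) was run on log2(FPKM + 0.1) with 1 mean per arm, for the 15350 genes averaging at least 0.1 FPKM. P-values were Benjamini-Hochberg adjusted over all of them, with a threshold of 0.05. The fit was tested on simulated data. Clec9a was compared by a two-sided exact permutation test within 400 relabelings. The 10 genes, the lists and the comparisons were chosen with earlier results of these data known. Named genes are all 10 members, in each of 3 further dendritic cell lists the called genes or else the 3 with the smallest p, every tested ligand, and the 5 genes most like Xcr1 with Clec9a and most like Ccr7, of which 1 is not reported here. Alternatives were pseudocounts of 0.01 and 1, other filters, TPM, quantile normalization, no trend, a replicate block, Ptprc as a covariate, and leaving out single tumors, 4 tumors high in skin, fat or muscle genes (palbociclib and combination replicates 1 and 2) or, added after seeing the data, the 2 tumors highest in fat genes. Python 3.11.15, numpy 2.4.6, pandas 2.3.3 and matplotlib 3.10.9 were used.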

Additional observations from a re-analysis of the deposited data

How the results depend on the processing

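Of the single-gene values, 192 kept their direction and side of the threshold under the alternatives, 2 came past it and 7 turned their sign. Of the other values 210 did, 3 moved and 3 came past the threshold. The number of members called in the palbociclib effect was 0 and became 1 (Irf4) with a replicate block (1.496, limma adjusted p = 0.0395) and without vehicle replicate 1, so that it ranged from 0 to 1 when single tumors were left out, where the Irf4 effect ranged from 1.19 to 1.72. Same-numbered tumors of different arms deviated from their arm means with correlations of -0.21 to 0.45 (median 0.03, 7 of 18 above 0.1), and with -0.21 to 0.0005 between palbociclib and vehicle and 0.0499 to 0.121 between combination and anti-PD-1, so the numbers were not taken as pairing the tumors of the palbociclib effect. Between vehicle and anti-PD-1 all 3 were above 0.1 (0.128 to 0.453), and with the replicate block that comparison still had 0 genes called by limma, with 1274 at an unadjusted p under 0.05 against 1289. With the replicate block 129 genes were called over all genes, against 48 without.

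The Fscn1 effect of -0.02 was 0.124 with Ptprc as a covariate, 0.0376 without palbociclib and combination replicates 1 and 2 (4 tumors high in muscle, skin or fat genes, with palbociclib replicate 3 and vehicle replicate 1, also high in muscle genes, kept), 0.0268 without vehicle replicate 1, 0.0315 without palbociclib replicate 1, 0.121 without the 2 tumors highest in fat genes, 0.0236 without anti-PD-1 replicate 2 and 0.0705 without combination replicate 1, and ranged from -0.119 to 0.0705 when single tumors were left out. The Clec9a effect of 0.66 was 1.682 with a pseudocount of 0.01 (exact permutation p = 0.045) and ranged from 0.534 to 0.860 when single tumors were left out. The cDC1 mean minus the migratory mean had an effect of 1.03 with a pseudocount of 0.01 and 0.0771 with a pseudocount of 1, against 0.42. The cause of these changes was not tested.

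Over all genes the calls of the palbociclib effect ranged from 0 to 758 when single tumors were left out (758 without anti-PD-1 replicate 1, 692 without vehicle replicate 1 and 264 without combination replicate 2). They were 11 with no filter, 12 without those 4 tumors, and 0 with no trend, with Ptprc as a covariate and without the 2 tumors highest in fat genes. Of the calls 79.2% were higher with palbociclib, and 63.6% of 44 after quantile normalization. Of 12 tumors, 6 held 3 Xcr1 fragments or fewer, which limits what can be read of cDC1 cells at this depth. Tlr3 kept its direction in every alternative, and its call was lost in 6 of the 11 alternatives other than those leaving out 1 tumor.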
